A study of Mus musculus with 14 samples.

Results

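The carbonic anhydrases examined here are 10 genes, Car1, Car2, Car3, Car4, Car5a, Car8, Car9, Car12, Car13 and Car14, named by symbol in the authors' deposited table and joined by Ensembl identifier to all 14 libraries of the count table. They are 10 of 37681 genes in that table. The other 6 genes of the mouse family, Car5b, Car6, Car7, Car10, Car11 and Car15, are given for comparison. Liver RNA was sequenced from 7 mice fed a high fat and high sucrose diet (HFHS) and 7 mice fed a low fat and low sucrose diet (LFLS), with a library for each mouse. The labels used here give no strain, sex, age, genotype or length of feeding. The question of the design is how the liver transcripts differed between the diets.

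Carbonic anhydrases are zinc enzymes that convert carbon dioxide and water to bicarbonate and a proton, and back. Their isoforms work in the cytosol, in mitochondria or at the cell surface, and a few members have lost the catalytic zinc site and the activity. In liver the mitochondrial form provides bicarbonate for the start of the urea cycle and of gluconeogenesis, while the cytosolic form Car3 is abundant in spite of a low activity.

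The genes were chosen by name with their measured diet differences in these same counts already known. Their diet differences are therefore a description, and no count of calls among them is read as a result about the family. Levels are CPM (counts scaled to a common library total) after scaling by edgeR's trimmed mean of M values (TMM). A gene was called where its Benjamini-Hochberg adjusted p in edgeR's quasi-likelihood test, fitted to all 17223 genes that passed edgeR's filter on low counts, was under 0.05. Of the 10 genes 7 passed that filter, and Car4, Car9 and Car12 did not. Of those 7, 1 was called higher in HFHS and 0 lower, beside 1.37% of all tested genes called higher and 1.44% called lower (2.81% in all). The higher one was Car3. In the same comparison 3 of the 7 had an unadjusted p under 0.05, beside 19.6% of all tested genes. DESeq2 called 2 higher, beside 3.15% of all genes, and limma voom 4 higher, beside 9.96%. With the first number of the sample title as a block, edgeR called 2 higher (Car3 and Car14), beside 4.38% of all tested genes called higher and 8.94% called in all. Called lower were 715 of all 17223 tested genes by DESeq2, 1558 by limma voom and 785 by edgeR with that block.

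The libraries held 18.2 M to 45.4 M counts in HFHS (median 29.0 M) and 18.3 M to 52.8 M in LFLS (median 29.6 M), where M stands for mega. No count in the table was below 1. Sample titles begin with a number, 1 for 4 mice of each diet and 2 for 3 mice of each diet, whose meaning the labels do not give. It is called the title number here, and since many genes differ with it, values within each title number are given beside the pooled ones. A second number in the titles was 1 for every LFLS and 4 for every HFHS library, so it cannot be told apart from diet. The liver label matched the hepatocyte markers, since 8 genes that include albumin summed to 67206 to 110348 CPM in HFHS and 77793 to 126802 CPM in LFLS. In whole tissue, fewer cells of a type and less RNA per cell cannot be told apart.

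Car3 was the most abundant carbonic anhydrase and was higher in HFHS livers. Car3 (ENSMUSG00000027559, chromosome 3) encodes the cytosolic isoform with weak hydratase activity, known also from slow skeletal muscle and fat. In HFHS livers Car3 stood at 1699.5 CPM in the lowest library, 2341 CPM in the median one and 2536 CPM in the highest, against 728, 1036 and 1849 CPM in LFLS livers. The groups overlapped only in that HFHS 3 (1699.5 CPM) lay below LFLS 3 (1849 CPM), so 6 of the 7 HFHS libraries were above every LFLS library. The means were 2244 ± 290.0 CPM in HFHS and 1135 ± 384 CPM in LFLS (SD, n = 7 each), a log2 fold change of 0.98 ± 0.19 (SE, 95% interval 0.59 to 1.38) and an adjusted p of 0.0140 in edgeR's test. That is a fold of 1.98, with an interval of 1.50 to 2.60. These levels rest on 13637 to 103470 counts per library, so counting error is small beside the spread between mice. Within LFLS the coefficient of variation of Car3 was 33.8%, and within HFHS it was 12.9%.

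The log2 fold change of Car3 was positive within both title numbers, and it was called within title number 2. With title number 2 the HFHS mice averaged 2460 ± 104 CPM and the LFLS mice 972 ± 138 CPM (SD, n = 3 each), a log2 fold change of 1.35 that edgeR called at an adjusted p of 0.00974. With title number 1 the HFHS mice averaged 2082 ± 282 CPM and the LFLS mice 1258 ± 485 CPM (SD, n = 4 each), a log2 fold change of 0.75 that was not called (edgeR adjusted p = 0.102). The difference between these log2 fold changes, number 2 minus number 1, was 0.61 ± 0.35 (SE) and was not called (interaction term in edgeR's test, adjusted p = 0.307). With the title number as a block the log2 fold change of Car3 was 0.99 (edgeR adjusted p = 0.00787). The call was lost when no filter on low counts was used (log2 fold change 0.93, edgeR adjusted p = 0.0573). Car3 was called without each library in turn, at edgeR adjusted p values of 0.00311 to 0.0357. In the authors' deposited table the fold of Car3 was 1.75, with a p of 0.01 and an adjusted p of 0.85. The header of the authors' deposited table calls its groups A and B without naming the diets, so the direction of that fold is not read.

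Car3 alone made up most of the carbonic anhydrase RNA by count. Its share of all counts of the 16 family members was 92.0 ± 1.15% in HFHS (range 89.4% to 93.0%) and 86.8 ± 2.41% in LFLS (83.7% to 91.4%; SD, n = 7 each). Its share of the whole library was 0.174% to 0.244% in HFHS and 0.0746% to 0.196% in LFLS. By mean CPM it ranked 42nd of the 17223 tested genes in HFHS and 98th in LFLS. The other 15 family members together summed to 194 ± 12.2 CPM in HFHS and 166 ± 33.9 CPM in LFLS (SD, n = 7 each).

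Because Car3 is also a gene of muscle and fat, markers of both tissues were summed in each library. The 12 skeletal muscle markers, such as Ckm (creatine kinase) and Acta1 (skeletal actin), summed to 1.25 to 1.89 CPM in HFHS and 1.21 to 8.89 CPM in LFLS. Ckm averaged 0.0393 CPM in HFHS and 0.235 CPM in LFLS (means over 7 libraries). The muscle marker with the highest HFHS mean, the slow troponin gene Tnnt1, averaged 0.464 ± 0.136 CPM in HFHS and 0.537 ± 0.152 CPM in LFLS (SD, n = 7 each). Of the muscle markers 1 passed the filter, and edgeR called 0 in either direction, with 0 at an unadjusted p under 0.05 and 0 by DESeq2 or limma voom. The 8 adipocyte markers summed to 1246 to 3010 CPM in HFHS and 1869 to 4737 CPM in LFLS, nearly all from Pck1, which hepatocytes also express. Without Pck1 the adipocyte sum was 38.8 to 172 CPM in HFHS and 38.1 to 73.0 CPM in LFLS. Most of this came from Cidec, a lipid droplet gene, at 73.4 ± 46.7 CPM in HFHS and 36.8 ± 8.11 CPM in LFLS. Adiponectin (Adipoq) averaged 0.322 ± 0.0854 CPM in HFHS and 0.457 ± 0.378 CPM in LFLS. Perilipin 1 (Plin1) averaged 0.299 ± 0.0970 CPM in HFHS and 0.234 ± 0.189 CPM in LFLS (SD, n = 7 each). Adipsin (Cfd) averaged 10.1 ± 4.89 CPM in HFHS and 4.08 ± 3.25 CPM in LFLS, with a log2 fold change of 1.28 that was not called (edgeR adjusted p = 0.139). Leptin (Lep), which did not pass the filter, averaged 0.163 ± 0.0880 CPM in HFHS and 0.0413 ± 0.0300 CPM in LFLS, and the fatty acid binding protein gene Fabp4 averaged 11.5 ± 4.13 CPM in HFHS and 11.2 ± 6.59 CPM in LFLS (SD, n = 7 each). Of the 5 adipocyte markers tested edgeR called 0, with 3 at an unadjusted p under 0.05, beside 19.6% of all tested genes. DESeq2 called 2 of them higher and 1 lower, beside 3.15% of all tested genes called higher and 715 of 17223 called lower. With limma voom 1 was called higher, beside 9.96% of all tested genes. With the title number as a block edgeR called Pck1 lower (adjusted p = 0.00537). The part of muscle or fat RNA in the level of Car3 was not tested.

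**Figure D1:**
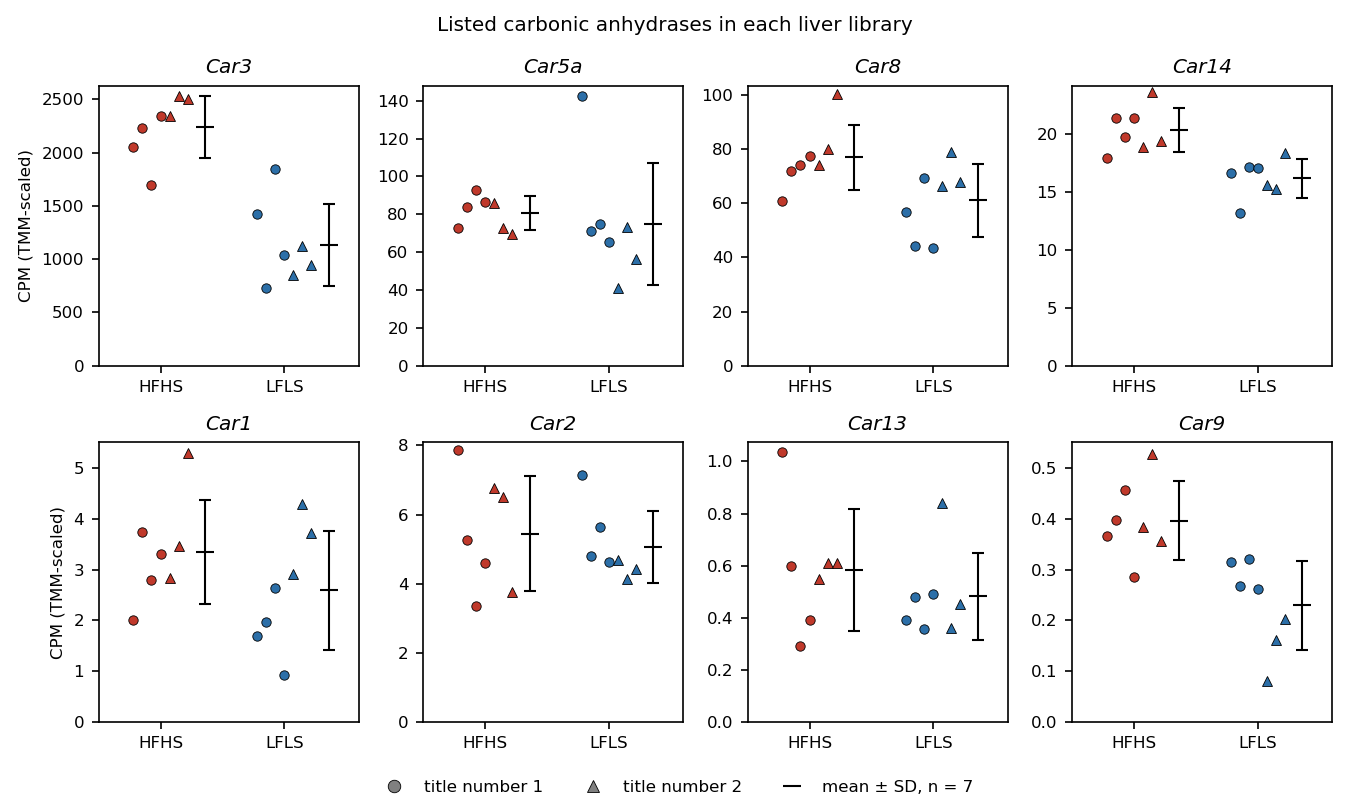
Level of 8 of the listed carbonic anhydrases in each liver library, in TMM-scaled CPM on an axis from 0, with HFHS on the left and LFLS on the right of each panel. Circles are mice of title number 1, triangles mice of title number 2, and bars are mean ± SD (n = 7). In the Car3 panel HFHS 3 at 1699.5 CPM is the HFHS library below the highest LFLS library at 1849 CPM.

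The mitochondrial carbonic anhydrase Car5a showed no called diet difference, and its spread in LFLS came mostly from 1 mouse. Car5a (ENSMUSG00000025317, chromosome 8) supplies bicarbonate to carbamoyl phosphate synthetase and pyruvate carboxylase in the hepatocyte mitochondrion. It stood at 69.7 CPM in the lowest HFHS library, 83.8 in the median one and 92.9 in the highest, against 41.2, 71.3 and 143 CPM in LFLS. The LFLS range enclosed the whole HFHS range, because LFLS 1 lay far above the next LFLS library at 74.6 CPM. The means were 80.6 ± 8.87 CPM in HFHS and 74.9 ± 32.1 CPM in LFLS (SD, n = 7 each), a log2 fold change of 0.10 with a 95% interval of -0.32 to 0.53 (edgeR adjusted p = 0.811). Without LFLS 1 the log2 fold change was 0.34 (edgeR adjusted p = 0.156). Within title number 2 it was 0.43 and within title number 1, which holds LFLS 1, it was -0.056, with neither called by edgeR. In GRCm38 annotation Car5a shares 314 exon bases with the long noncoding gene BC048644 on the other strand. The labels do not say that the libraries kept strand, so reads from the overlap cannot be told apart. BC048644 averaged 66.4 ± 4.29 CPM in HFHS and 55.9 ± 23.2 CPM in LFLS (SD, n = 7 each), with LFLS 1 again its highest library at 105 CPM.

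The other mitochondrial isoform, Car5b (ENSMUSG00000031373, chromosome X), is not among the listed 10 and was the family member whose diet groups did not overlap. It stood at 2.39 CPM in the lowest HFHS library, 2.95 in the median one and 3.26 in the highest, against 1.73, 2.19 and 2.37 CPM in LFLS. Groups without overlap were found for 1.65% of all tested genes. Its log2 fold change was 0.47 ± 0.12 (SE, 95% interval 0.21 to 0.73), with an edgeR adjusted p of 0.0510, so it was not called. It was called by edgeR with the title number as a block (adjusted p = 0.0270), with library totals alone (0.0411), with the filter at 1 CPM (0.0447), without HFHS 4 (0.0473) and without LFLS 6 (0.0372), as well as by DESeq2 (0.0114) and limma voom (0.0163). Over all 25 alternatives its adjusted p ran from 0.0114 to 0.268, and its log2 fold change from 0.36 to 0.57.

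The mean level of Car14 was higher in HFHS, and the gene missed the threshold for a call. Car14 (ENSMUSG00000038526, chromosome 3) encodes a transmembrane isoform with its catalytic site outside the cell, described on the hepatocyte membrane in mouse. It stood at 17.9 CPM in the lowest HFHS library, 19.7 in the median one and 23.6 in the highest, against 13.2, 16.6 and 18.3 CPM in LFLS. As for Car3, 6 of the 7 HFHS libraries were above every LFLS library. The means were 20.3 ± 1.91 CPM in HFHS and 16.1 ± 1.66 CPM in LFLS (SD, n = 7 each). The log2 fold change was 0.33 ± 0.09 (SE, 95% interval 0.14 to 0.52), and Car14 was not called (edgeR adjusted p = 0.0557). Within title number 2 the log2 fold change was 0.34 and within title number 1 it was 0.35, with neither called by edgeR. Car14 was called by edgeR with the title number as a block (adjusted p = 0.0297), with library totals alone (0.0350), with the filter at 1 CPM (0.0471) and without LFLS 1 (0.0497), and by DESeq2 (0.0107) and limma voom (0.00930). In GRCm38 annotation Car14 shares 445 exon bases with Aph1a, a gamma-secretase subunit gene on the other strand, whose reads there cannot be told apart from those of Car14. Aph1a averaged 13.6 ± 1.10 CPM in HFHS and 12.6 ± 1.82 CPM in LFLS (SD, n = 7 each), and its log2 fold change of 0.12 was not called (edgeR adjusted p = 0.550).

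Car9 and Car12, the other listed transmembrane isoforms, and Car4, which is anchored to the outer membrane by a lipid, were at or near the lowest values of the table. Car12 had 1 to 7 counts per library and Car4 had 1 to 4, and each was at 1, the lowest count possible here, in 8 of the 14 libraries. No difference was detectable for them at this depth. Car9 (ENSMUSG00000028463, chromosome 4), known as a target of the hypoxia response, had 2 to 19 counts per library and did not pass the filter. It stood at 0.285 CPM in the lowest HFHS library, 0.383 in the median one and 0.528 in the highest, against 0.0801, 0.262 and 0.322 CPM in LFLS. Of the HFHS libraries 6 of 7 were above every LFLS library, and the means were 0.396 ± 0.0775 CPM in HFHS and 0.230 ± 0.0875 CPM in LFLS (SD, n = 7 each). With no filter on low counts, where 26561 genes were fitted, its log2 fold change was 0.72 ± 0.28 (SE, 95% interval 0.13 to 1.30) and it was not called (edgeR adjusted p = 0.263). The reading of Car4, Car9 and Car12 from that setting was added after the data were seen.

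Car9 shares 214 exon bases in GRCm38 annotation with the antisense gene Gm12454. Gm12454 (ENSMUSG00000087142) was at 0.358 CPM in the lowest HFHS library, 0.428 in the median one and 0.569 in the highest, against 0.120, 0.160 and 0.304 CPM in LFLS. The groups did not overlap, as was found for 1.65% of all tested genes. These levels rest on 3 to 28 counts per library. Gm12454 passed the filter on low counts through its HFHS libraries alone. With LFLS levels this low, it was tested only because all HFHS libraries lay higher. Nothing is therefore read from its test or from the absence of overlap. Reads from the shared bases cannot be assigned to Car9 or to Gm12454, so the level of either may hold reads of the other.

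**Figure D2:**
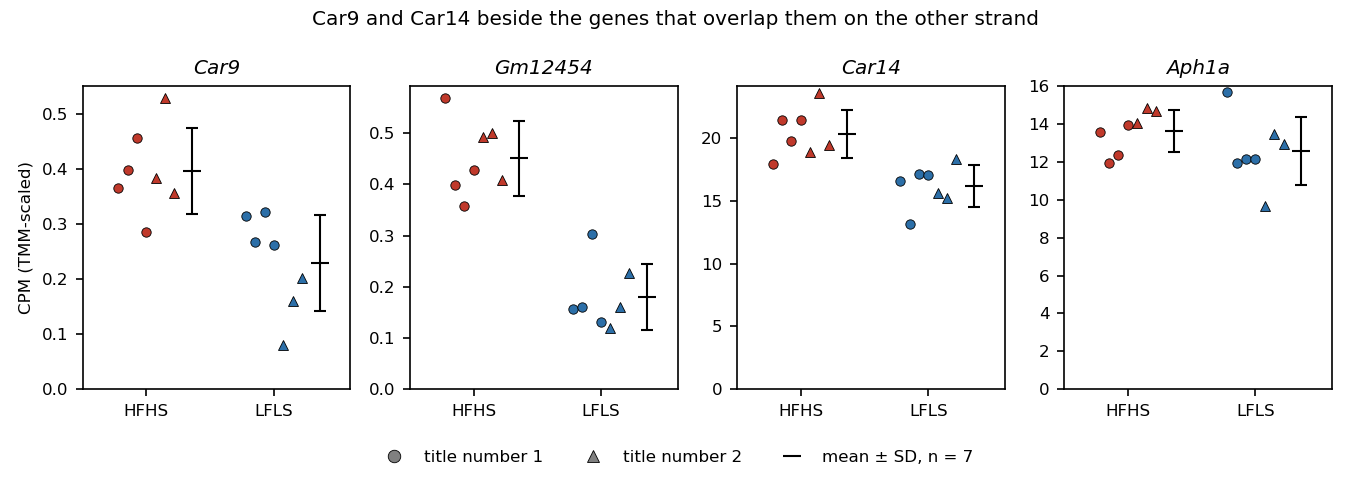
Car9 and Car14 beside the genes that overlap them on the other strand, Gm12454 and Aph1a, in TMM-scaled CPM for each library (HFHS left, LFLS right; circles title number 1, triangles title number 2; bars mean ± SD, n = 7). The HFHS and LFLS libraries are apart for Gm12454, at 0.358 to 0.569 CPM in HFHS and 0.120 to 0.304 CPM in LFLS, and overlap for the other genes. Gm12454 passed the filter on low counts through its HFHS libraries alone, so its separation is not read.

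Promoter sequences are shown for the listed genes described above whose level was measured beside an overlapping gene. Each places an annotated start of its gene, while the counts are per Ensembl gene and are not tied to that start. The RefSeq promoter table (build GRCm38.p6, 250 bases before to 50 after the start) matched 5 of the 10 listed genes, Car4, Car5a, Car9, Car12 and Car14, and not Car1, Car2, Car3, Car8 or Car13. Car14 is at chr3:95904636-95904935 on the minus strand, Car9 at chr4:43506776-43507075 on the plus strand, and Car5a at chr8:121944863-121945162 on the minus strand. Each is printed 5′ to 3′ on the strand of its gene, and capitals mark matches to CCAAT or to ACGTG, the core letters bound by hypoxia-inducible factors, on either strand.
Car14: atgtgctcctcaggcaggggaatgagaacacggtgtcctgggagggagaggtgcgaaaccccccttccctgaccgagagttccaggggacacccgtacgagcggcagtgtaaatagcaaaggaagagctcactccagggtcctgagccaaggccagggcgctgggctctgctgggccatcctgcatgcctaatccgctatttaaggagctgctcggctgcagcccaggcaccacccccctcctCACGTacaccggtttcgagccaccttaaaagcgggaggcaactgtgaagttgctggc
Car9: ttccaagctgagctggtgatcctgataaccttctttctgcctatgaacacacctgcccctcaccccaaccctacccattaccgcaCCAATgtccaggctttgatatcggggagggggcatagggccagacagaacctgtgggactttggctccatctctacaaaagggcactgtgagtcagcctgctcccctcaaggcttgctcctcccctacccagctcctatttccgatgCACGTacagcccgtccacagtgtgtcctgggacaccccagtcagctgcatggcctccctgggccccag
Car5a: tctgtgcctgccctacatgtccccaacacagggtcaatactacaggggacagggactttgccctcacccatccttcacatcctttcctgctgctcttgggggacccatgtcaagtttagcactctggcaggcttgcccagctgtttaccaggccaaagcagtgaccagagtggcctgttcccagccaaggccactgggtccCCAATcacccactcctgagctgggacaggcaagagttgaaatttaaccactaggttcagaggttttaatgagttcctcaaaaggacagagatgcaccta
The letters searched on both strands were TATAAA for the TATA box, CCAAT for the CCAAT box and ACGTG for the hypoxia core, and no match overlapped another here. Car14 and Car9 each hold ACGTG on the opposite strand, read above as CACGT, from position -7 and from position -18 relative to the start. Car9 and Car5a each hold CCAAT, from position -165 and from position -49. None of these 3 promoters holds TATAAA. Among 32851 promoters of the same length 19.6% hold ACGTG, 37.4% CCAAT and 13.6% TATAAA, so these matches are common. The Car14 promoter has 13 CpG dinucleotides, the Car9 promoter 5 and the Car5a promoter 0, against a median of 7 over all promoters. A match is only a run of letters, and no binding was measured.

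Genes known to be induced by hypoxia were counted beside Car9. Of 14 such genes tested edgeR called 0, with 4 at an unadjusted p under 0.05, beside 19.6% of all tested genes. DESeq2 called 1 higher, beside 3.15% of all tested genes. With limma voom 4 were called higher and 1 lower, beside 9.96% of all tested genes called higher and 1558 of 17223 called lower. The summed level of the 14 genes was 681 to 792 CPM in HFHS and 638 to 909 CPM in LFLS. Their median log2 fold change was 0.07, beside -0.0087 over all tested genes. Hexokinase 2 (Hk2) had the smallest p among them, with a log2 fold change of 1.41 ± 0.41 (SE, edgeR adjusted p = 0.0743). Hk2 averaged 5.08 ± 4.12 CPM in HFHS and 1.92 ± 0.581 CPM in LFLS (SD, n = 7 each), and it was called with the title number as a block (edgeR adjusted p = 0.0392). The other 3 genes at an unadjusted p under 0.05 had negative log2 fold changes, -0.39 for the glucose transporter Slc2a1, -0.40 for lactate dehydrogenase A (Ldha) and -0.27 for the histone demethylase Kdm3a, with edgeR adjusted p values of 0.149, 0.179 and 0.243.

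Car8 (ENSMUSG00000041261, chromosome 4) encodes a carbonic anhydrase-related protein without catalytic activity that binds the type 1 receptor for inositol trisphosphate. It stood at 60.8 CPM in the lowest HFHS library, 74.2 in the median one and 100.5 in the highest, against 43.6, 66.4 and 78.9 CPM in LFLS. The groups overlapped between 60.8 and 78.9 CPM, with 2 HFHS libraries above every LFLS library and 3 LFLS libraries below every HFHS library. The means were 76.9 ± 12.0 CPM in HFHS and 61.0 ± 13.3 CPM in LFLS (SD, n = 7 each), a log2 fold change of 0.33 ± 0.14 (SE, 95% interval 0.03 to 0.63) that was not called (edgeR adjusted p = 0.204). Within title number 2 the log2 fold change was 0.26 and within title number 1 it was 0.42, with neither called by edgeR. Car8 was called by limma voom (log2 fold change 0.57, adjusted p = 0.00964).

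The cytosolic isoforms Car1, Car2 and Car13 were low in these livers and none was called for diet in edgeR's test. Car1 and Car2 are the carbonic anhydrases of red blood cells, and Car13 is a cytosolic isoform found in several tissues. Car1 (ENSMUSG00000027556) stood at 2.01 CPM in the lowest HFHS library, 3.31 in the median one and 5.30 in the highest, against 0.916, 2.64 and 4.29 CPM in LFLS. Car2 (ENSMUSG00000027562) stood at 3.36, 5.27 and 7.87 CPM in HFHS, against 4.13, 4.68 and 7.15 CPM in LFLS. Car13 (ENSMUSG00000027555) stood at 0.293, 0.597 and 1.04 CPM in HFHS, against 0.357, 0.454 and 0.841 CPM in LFLS. The diet groups of all 3 genes overlapped. Car1 averaged 3.36 ± 1.03 CPM in HFHS and 2.60 ± 1.18 CPM in LFLS, and its log2 fold change was 0.36 (95% interval -0.25 to 0.97; edgeR adjusted p = 0.509). Car2 averaged 5.45 ± 1.67 CPM in HFHS and 5.06 ± 1.03 CPM in LFLS, and its log2 fold change was 0.11 (-0.30 to 0.51; edgeR adjusted p = 0.794). Car13 averaged 0.584 ± 0.234 CPM in HFHS and 0.482 ± 0.167 CPM in LFLS (SD, n = 7 each), and its log2 fold change was 0.32 (-0.26 to 0.90; edgeR adjusted p = 0.537). These intervals still hold changes of the size seen for Car14. The sign for Car2 was not stable, at -0.0086 without HFHS 1 and -0.054 within title number 1, and 0.38 within title number 2. For Car13 the log2 fold change without HFHS 1 was 0.09. Within title number 2 the log2 fold change of Car1 was 0.09 and within title number 1 it was 0.72, and limma voom called Car1 (log2 fold change 0.89, adjusted p = 0.0437).

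Red cell genes were summed beside Car1 and Car2. The 13 erythroid markers, mostly globins and the haem enzyme Alas2, summed to 384 to 499 CPM in HFHS and 337 to 766 CPM in LFLS. Of the 7 tested edgeR called 0, with 0 at an unadjusted p under 0.05, beside 19.6% of all tested genes. DESeq2 and limma voom called 0 of these markers. By title number their sums were 337 to 487 CPM in the mice of number 2 and 384 to 766 CPM in those of number 1.

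Car13, Car1, Car3 and Car2 lie next to each other on chromosome 3 in the order given, per RefSeq annotation, with the pseudogene Gm5843 between Car13 and Car1 and with the pseudogene Gm16399 and the noncoding gene Gm41999 between Car1 and Car3. Of these neighbours Car3 was called for diet and Car13, Car1 and Car2 were not. Gm5843 averaged 0.912 ± 0.213 CPM in HFHS and 0.614 ± 0.259 CPM in LFLS (SD, n = 7 each), and its log2 fold change of 0.53 was not called (edgeR adjusted p = 0.267). Car14 is on the same chromosome outside this cluster.

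**Figure D3:**
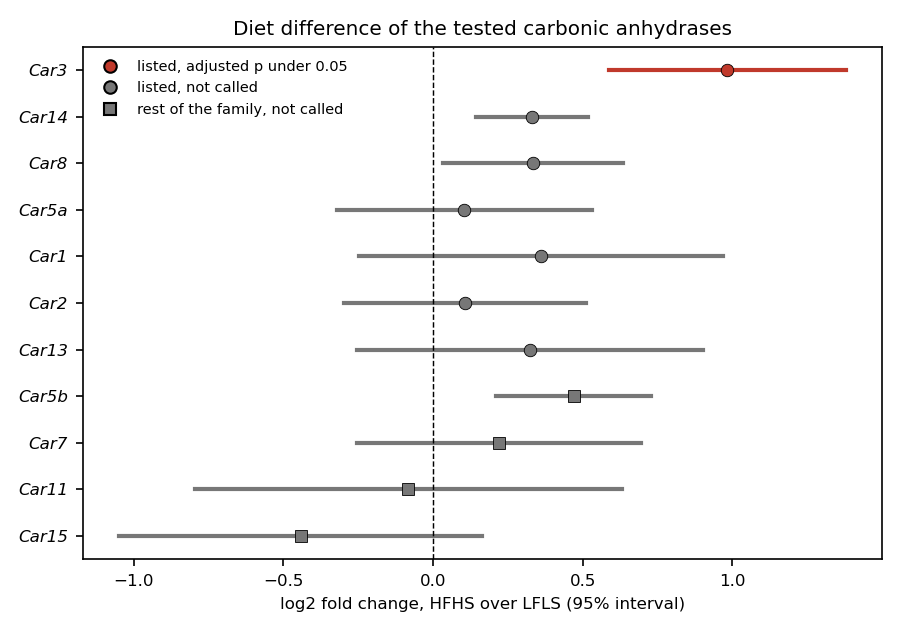
Log2 fold change of HFHS over LFLS with its 95% interval for the 11 tested carbonic anhydrases, listed genes as circles and the rest of the family as squares, with a dashed line at 0. Car3, in red, is the called gene at 0.98, and the intervals of Car14, Car8 and Car5b also lie above 0 although these genes were not called.

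Of the 6 family members outside the list 4 passed the filter, and edgeR called 0 of them. Car5b alone had an unadjusted p under 0.05 (1 of 4, beside 19.6% of all tested genes). DESeq2 and limma voom called Car5b higher. The cytosolic Car7 averaged 1.95 ± 0.353 CPM in HFHS and 1.67 ± 0.624 CPM in LFLS (SD, n = 7 each), and its log2 fold change was 0.22 (95% interval -0.26 to 0.70; edgeR adjusted p = 0.617). The catalytically inactive Car11 averaged 0.471 ± 0.254 CPM in HFHS and 0.503 ± 0.182 CPM in LFLS, and its log2 fold change was -0.08 (-0.80 to 0.63; edgeR adjusted p = 0.917). The membrane-anchored Car15 averaged 0.476 ± 0.185 CPM in HFHS and 0.629 ± 0.223 CPM in LFLS, and its log2 fold change was -0.44 (-1.05 to 0.16; edgeR adjusted p = 0.406). Car15 shares 1253 exon bases with Gm20518 on the same strand in GRCm38 annotation, so its level is uncertain. Gm20518 averaged 60.2 ± 5.83 CPM in HFHS and 77.7 ± 19.8 CPM in LFLS (SD, n = 7 each). Its log2 fold change of -0.37 was not called (edgeR adjusted p = 0.164). With the title number as a block Gm20518 was called lower (log2 fold change -0.34, edgeR adjusted p = 0.0417). The secreted Car6 and the inactive Car10 had 1 to 2 counts in every library.

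Levels of different genes were compared per kilobase of exon, with lengths from GENCODE M21. Car3 stood first at 783 ± 101 CPM per kilobase in HFHS and 396 ± 134 in LFLS. Car5a followed at 60.2 ± 6.62 CPM per kilobase in HFHS and 56.0 ± 24.0 in LFLS, then Car8 at 20.0 ± 3.12 in HFHS and 15.8 ± 3.46 in LFLS, and Car14 at 7.99 ± 0.753 in HFHS and 6.35 ± 0.654 in LFLS (SD, n = 7 each). These 4 genes did not overlap with their neighbours in this order in either diet. Car1 at 2.69 ± 0.822 CPM per kilobase in HFHS and 2.08 ± 0.942 in LFLS could not be ordered against Car2 at 2.25 ± 0.689 in HFHS and 2.09 ± 0.426 in LFLS, since their ranges overlapped. Car13 at 0.254 in HFHS and 0.210 in LFLS overlapped with Car9 at 0.172 in HFHS, and did not overlap with Car9 at 0.0996 in LFLS. Car4 at 0.0260 CPM per kilobase in HFHS and 0.0321 in LFLS and Car12 at 0.00671 in HFHS and 0.00838 in LFLS rest on the lowest counts of the table, and their order is not read.

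**Figure D4:**
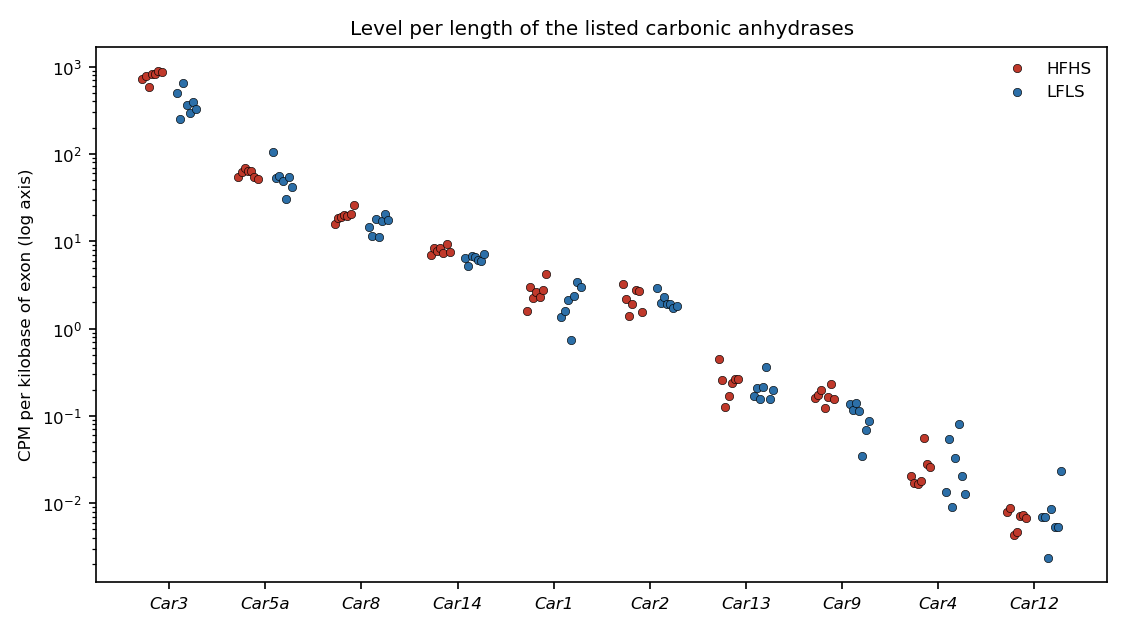
Level of the 10 listed carbonic anhydrases per kilobase of exon in each library, in TMM-scaled CPM per kilobase on a log axis, ordered by level (HFHS red and left, LFLS blue and right). Car3 stands above 100 in every library at a mean of 783 in HFHS and 396 in LFLS, and Car4 and Car12 rest on 1 to 7 counts.

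The title number is not part of how the genes were listed, so it could be tested. In a fit with diet, 28.8% of all tested genes were called between title number 2 and title number 1 (13.9% higher and 14.8% lower), and of the 7 tested carbonic anhydrases Car1 and Car8 were called, both higher in title number 2. Car1 averaged 3.87 ± 1.27 CPM in HFHS mice of number 2 and 2.97 ± 0.746 in HFHS mice of number 1, and 3.65 ± 0.688 CPM in LFLS mice of number 2 and 1.81 ± 0.715 in LFLS mice of number 1 (SD, n = 3 and 4). Its log2 fold change, number 2 over number 1, was 0.69 ± 0.23 (SE, 95% interval 0.20 to 1.19; edgeR adjusted p = 0.0371). Car8 averaged 84.9 ± 13.8 CPM in HFHS mice of number 2 and 71.0 ± 7.14 in HFHS mice of number 1, and 71.0 ± 6.83 CPM in LFLS mice of number 2 and 53.5 ± 12.2 in LFLS mice of number 1. Its log2 fold change was 0.33 ± 0.11 (SE, 95% interval 0.09 to 0.57; edgeR adjusted p = 0.0400). Both calls were close to the threshold, and 2 of 7 is near the background share. With library totals alone both were lost, at edgeR adjusted p values of 0.0654 for Car1 and 0.156 for Car8. Leaving out HFHS 1, HFHS 7, LFLS 2, LFLS 5, LFLS 6 or LFLS 7 lost both, leaving out LFLS 1 lost Car1 and leaving out LFLS 4 lost Car8. The adjusted p ran from 0.0180 to 0.0882 for Car1 and from 0.0196 to 0.0970 for Car8 over these left-out libraries. Car3 had a title number log2 fold change of -0.06 (95% interval -0.46 to 0.34; edgeR adjusted p = 0.826). For Car5a it was -0.39 (-0.78 to 0.0039; edgeR adjusted p = 0.121). Of the 7 tested listed genes 0 were called for an interaction of diet and title number in edgeR's test, the only tool run for it, and 0 had an unadjusted p under 0.05, beside 0.883% of all tested genes called.

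**Figure D5:**
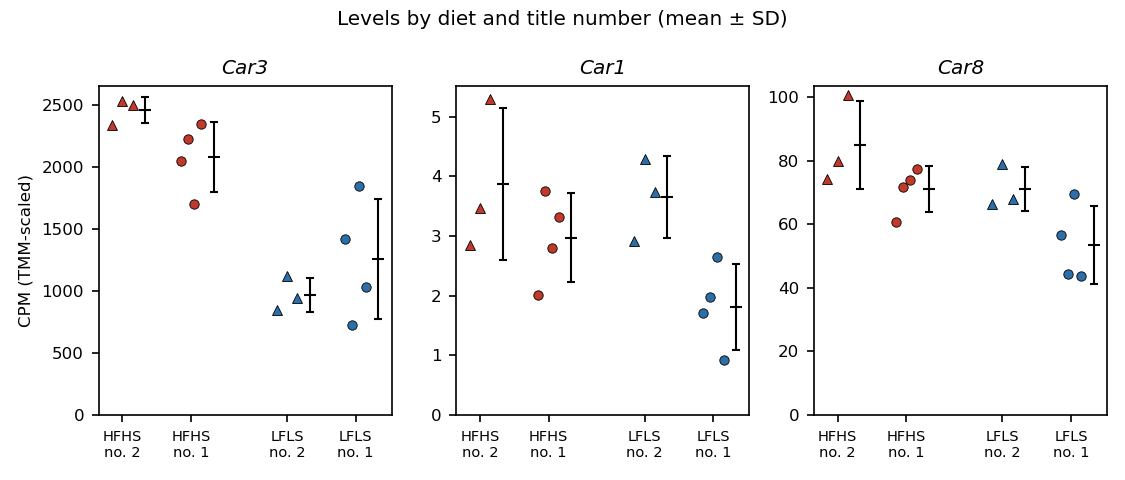
Car3, Car1 and Car8 by diet and title number in TMM-scaled CPM (from left, HFHS number 2, HFHS number 1, LFLS number 2, LFLS number 1; points are mice, bars mean ± SD, n = 3 for number 2 and 4 for number 1). The means of Car1 and Car8 are higher with number 2 than with number 1 in both diets. Single mice of the title numbers overlap for both genes in HFHS and for Car8 in LFLS. Car3 is higher in HFHS than in LFLS by 0.61 more log2 units with number 2, a difference that was not called.

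The genes whose deviations from the diet means over the 14 libraries were most like those of each carbonic anhydrase were named by the root mean square difference of standardised log2 CPM, where 0 is an identical pattern. For Car3 they were Dirc2 (0.393), Znrf3 (0.535) and Glud1 (0.536). For Car5a they were BC048644 (0.232), Mrpl2 (0.234) and Hpn (0.239), a pattern in which LFLS 1 is the far point. For Car8 they were Hsd3b2 (0.295), Akr1c13 (0.318) and Enpp1 (0.378). For Car1 they were its neighbour Gm5843 (0.399), 1600020E01Rik (0.411) and Tmem232 (0.412), and for Car2 Anxa5 (0.293), Ano10 (0.405) and Cfl1 (0.450). Car14 had no close match, its nearest being Gm17249 (0.726), Ash2l (0.730) and Prpf6 (0.736). Within the family Car1 and Car8 were the nearest pair (0.484), followed by Car5a and Car7 (0.850). All genes were measured in the same libraries and the title number was not removed from the deviations, so likeness is a description. Car5a and BC048644 also share exon bases.

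The enzymes that use bicarbonate were counted beside the carbonic anhydrases. All 9 passed the filter and edgeR called 0, with 2 at an unadjusted p under 0.05, beside 19.6% of all tested genes. DESeq2 called 1 lower, beside 715 of all 17223 tested genes. With limma voom 1 was called higher and 2 lower, beside 9.96% of all tested genes called higher and 1558 of 17223 called lower. The median log2 fold change of the 9 enzymes was -0.01. Carbamoyl phosphate synthetase 1 (Cps1), the mitochondrial entry enzyme of the urea cycle, averaged 2413 ± 456 CPM in HFHS and 4340 ± 1550 CPM in LFLS (SD, n = 7 each). Its log2 fold change was -0.85 ± 0.22 (SE, 95% interval -1.31 to -0.38), not called at an edgeR adjusted p of 0.0511 and called lower with the title number as a block (log2 fold change -0.79, edgeR adjusted p = 0.00997). The pyrimidine synthesis enzyme Cad had a log2 fold change of -0.57 (edgeR adjusted p = 0.126; 0.0248 with the block). Pyruvate carboxylase (Pcx), another mitochondrial user of bicarbonate, averaged 613 ± 104 CPM in HFHS and 604 ± 179 CPM in LFLS. Its log2 fold change was 0.02 (95% interval -0.34 to 0.38). The propionyl-CoA carboxylase subunit Pcca had a log2 fold change of 0.13 (edgeR adjusted p = 0.545).

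Transporters of bicarbonate and protons, which move the products of the enzymes across membranes, were not called either. Of 18 listed genes 10 passed the filter and edgeR called 0, with 2 at an unadjusted p under 0.05, beside 19.6% of all tested genes. DESeq2 called 0 of them and limma voom called 2 higher, beside 9.96% of all tested genes. The median log2 fold change of the 10 tested transporters was -0.03. The smallest p values belonged to Slc26a4 (log2 fold change 1.00, edgeR adjusted p = 0.210), Slc26a3 (0.56, 0.248), Slc4a2 (-0.18, 0.441) and Slc4a7 (0.31, 0.468). Slc26a4 and Slc26a3 averaged under 1 CPM in both diets. The sodium bicarbonate cotransporter Slc4a4 averaged 133 ± 19.3 CPM in HFHS and 127 ± 30.5 CPM in LFLS (SD, n = 7 each). Slc26a9 was at the lowest count in all 14 libraries.

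Other cell type markers were summed as well. The 10 perivenous hepatocyte markers summed to 7332 to 13152 CPM in HFHS and 7447 to 12626 CPM in LFLS. Of them edgeR called 1 lower (Cyp1a2), beside 1.44% of all tested genes. The 8 periportal markers summed to 6005 to 9265 CPM in HFHS and 6373 to 14993 CPM in LFLS. Of these edgeR called 0, with 6 at an unadjusted p under 0.05, beside 19.6% of all tested genes. DESeq2 called 4 lower, beside 715 of all 17223 tested genes, and limma voom 3 lower, beside 1558. With the title number as a block edgeR called 2 of the periportal markers lower, Pck1 (adjusted p = 0.00537) and Cps1 (0.00997). Over all tested genes that block gave 785 called lower. Of the 8 hepatocyte markers edgeR called 0, with 4 at an unadjusted p under 0.05, beside 19.6% of all tested genes. DESeq2 called 2 hepatocyte markers lower, beside 715 of all 17223 tested genes, and limma voom called 0 of these markers. With the title number as a block edgeR called 2 of them lower, Hnf4a (adjusted p = 0.0204) and Tat (0.0315). Bile duct markers summed to 58.0 to 166 CPM in HFHS, the highest being HFHS 1, and 59.4 to 107 CPM in LFLS. The largest part came from Spp1, at 61.4 ± 37.4 CPM in HFHS and 39.8 ± 13.3 CPM in LFLS (SD, n = 7 each). Of the bile duct markers edgeR called Tff3 lower, beside 1.44% of all tested genes. Endothelial markers summed to 294 to 431 CPM in HFHS and 265 to 496 CPM in LFLS. Exocrine pancreas markers summed to 17.2 to 434 CPM in HFHS and 19.9 to 1615 CPM in LFLS. Of the 7 endothelial and 13 pancreas markers 0 were called by edgeR, DESeq2 or limma voom. In edgeR's test 0 of them had an unadjusted p under 0.05, beside 19.6% of all tested genes. The part of these cell types in the levels of the carbonic anhydrases was not tested.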

How the data were processed

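Liver RNA of 14 mice, 7 per diet, was sequenced as 50 base single reads from oligo dT purified RNA, per the labels' protocols. CASAVA 1.8, TopHat, Bowtie and DESeq and the build mm9 are named in the submitters' processing notes, with no counting tool or annotation named there. The deposited counts are whole numbers per Ensembl gene whose lowest value is 1, with 11120 of 37681 genes at 1 in every library. The authors' deposited table gives a mean over all libraries as signal values on DESeq's normalised count scale, a fold ratio of its group B to its group A, its log2 and a p-value, per the file headers. That table was used for gene symbols and for the quoted Car3 row. 

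Diet was tested on the counts in R 4.3.3 with edgeR 4.0.16 (TMM scaling, filterByExpr by diet, quasi-likelihood F test, Benjamini-Hochberg adjustment over all tested genes), without covariates, and the code was tested on simulated data. The standard error is the log2 fold change divided by the square root of F. Other settings were DESeq2 1.42.0, voom from limma 3.58.1 (quality weights), other scalings and filters, blocks by title, the mice of a title number by themselves, and omission of a library at a time. All 10 listed genes are named, with the rest of the family, genes called or up to 4 of the smallest p in the transporter and enzyme lists, and the 3 nearest genes in likeness (for listed genes averaging 1 CPM or more). The others named, such as Slc4a4, Pcx, the overlapping genes and single markers, were chosen after their values were seen. The members and lists were chosen with earlier results of these data known. Exon lengths and overlaps are from GENCODE M21 on GRCm38, not the mm9 build of the counts, and matched 86.6% of identifiers. Each library is a separate mouse per the labels.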

Additional observations from a re-analysis of the deposited data

Results flagged for a closer look

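Of 22 groups of 7 libraries examined, 3 held a library whose gap to the nearest other, relative to the range of its group, passed Dixon's 95% value, and chance gives about 1 in 20 groups. Car5a in LFLS 1 stood at 143 CPM, with the next LFLS library at 74.6 CPM and a gap of 0.670 of the range. Car13 in HFHS 1 stood at 1.04 CPM, with the next HFHS library at 0.612 CPM and a gap of 0.572 of the range. Car13 in LFLS 5 stood at 0.841 CPM, with the next LFLS library at 0.491 CPM and a gap of 0.724 of the range. Car13 rests on 9 to 51 counts per library.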

How the results depend on the processing

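In the diet comparison 484 genes were called, 236 higher and 248 lower, and the count was 1258 with DESeq2, 3274 with limma voom, 173 with no filter on low counts, 1540 with the title number as a replicate block, 1484 with title number 1 alone and 269 with title number 2 alone. With library totals alone 379 were higher and 152 lower. Leaving out a library gave 133 to 853, with changes of over 1.5 times without HFHS 1 (248), HFHS 2 (133), HFHS 5 (176), HFHS 6 (199), HFHS 7 (252), LFLS 2 (263), LFLS 3 (316), LFLS 4 (262), LFLS 6 (853) and LFLS 7 (275). Of the listed carbonic anhydrases, 1 called as reported, 2 were called with DESeq2, library totals alone, the 1 CPM filter and the title number as a replicate block, 4 with limma voom, and 0 with no filter or with title number 1 alone. Leaving out a library gave 1 to 2. The title number comparison called 4953 genes, and 2778 to 5514 without a library, the lowest being without LFLS 7 (2778), LFLS 6 (3135) and LFLS 5 (3198). The log2 fold change changed sign for Car2 with title number 1 alone (-0.054) and without HFHS 1 (-0.0086, the lowest of -0.0086 to 0.21 without a library), and for Car5a with title number 1 alone (-0.056). The cause of these changes was not tested. Over all alternatives the log2 fold change of Car3 ran from 0.75 to 1.35, and its adjusted p (edgeR, DESeq2 or limma) from 1.94e-05 to 0.102.

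Correlations of deviations from the diet means were taken between HFHS and LFLS libraries only. They averaged 0.129 where the title number was shared and -0.134 where it was not. Deviations within a diet sum to 0, so these means offset each other and are not separate observations. A title pair is an HFHS and an LFLS library with the same title number and the same first letter in the title. These pairs were read from the titles alone, and the 7 of them correlated at -0.069 to 0.415. Of 14 libraries 6 correlated best with their own pair, a count that was not tested against a chance level. The pairs as a replicate block called 598 genes and 1 listed carbonic anhydrase. Depth limits Car4, Car9, Car12, Car6 and Car10, whose counts were at or near the lowest value.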
